A study of Homo sapiens with 22 samples.

Results

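Hedgehog signalling was followed at the RNA level through 7 genes, SHH, PTCH1, SMO, GLI1, GLI2, GLI3 and HHIP, in 22 RNA-seq libraries of human renal proximal tubule epithelial cells (RPTEC). The 7 genes were chosen by name as the core of the pathway, with earlier results of these data known. They were read as 7 of the 36859 rows of the deposited table, each found by its symbol. RPTEC are a non-tumorigenic line immortalised with hTERT (human telomerase reverse transcriptase) and kept under G418. The study asked how loss of SETD2, the enzyme that places the histone mark H3K36me3, relates to the epithelial-to-mesenchymal transition that TGF-β brings about. The libraries formed 11 groups of 2 replicates. In medium with 2% serum there were 5 groups, which were WT, WT given TGF-β (10 ng/ml, 72 h), KO1 and KO2 (lines without SETD2), and a line labelled KO2_Rescue. In regular medium with 10% serum there were 6 groups, which were the SETD2 rescue lines Rescue1 and Rescue2 and WT transduced with lentiviral eGFP (the vector control), SOX2, OCT2 or PRRX1. KO1 and KO2 are each 1 clone cut in exon 3 of SETD2, Rescue1 and Rescue2 are each 1 colony of knockout cells re-expressing tagged SETD2 under blasticidin, and the eGFP, SOX2, OCT2 and PRRX1 lines are bulk cells selected with puromycin. Which knockout clone Rescue1 and Rescue2 came from is not named in the sources used here. Nothing states that the replicates of a group were separate cultures, so the p-values measure only the spread between these libraries.

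Hedgehog signalling begins when a secreted ligand, here Sonic hedgehog (SHH), binds the membrane receptor PTCH1. Free PTCH1 holds SMO inactive, and ligand-bound PTCH1 releases SMO, which gathers in the primary cilium and lets the GLI transcription factors act. GLI2 is the main activator, GLI3 acts mostly as a repressor, and GLI1 is a target that amplifies the signal. PTCH1 and HHIP are also targets of the pathway and restrain it, PTCH1 by blocking SMO and HHIP by trapping the ligand. In the developing kidney SHH is made by collecting duct and ureter epithelium and is received mainly by the neighbouring stroma.

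Promoter sequences are shown for SHH, PTCH1, GLI2 and HHIP, the members with a window at hand whose RNA was called in at least 1 comparison, because PTCH1 and HHIP are textbook targets of GLI factors. RefSeq windows of 300 bases (250 before and 50 after a start site, build GRCh38.p14) were at hand for 5 of the 7 genes, in 10 windows. The 9-letter GLI consensus GACCACCCA, searched on both strands (reverse complement TGGGTGGTC), was held by 83 of 35116 promoter windows (0.236%), and among the members by 1 window of PTCH1. Its core of 7 letters, CCACCCA, which lies within the 9 letters, was held by 3227 windows (9.19%), among them the same PTCH1 window and 1 window of GLI2. Capitals mark these matches, and windows written wholly in lower case hold neither motif.
PTCH1 (chr9:95509217-95509516, minus strand): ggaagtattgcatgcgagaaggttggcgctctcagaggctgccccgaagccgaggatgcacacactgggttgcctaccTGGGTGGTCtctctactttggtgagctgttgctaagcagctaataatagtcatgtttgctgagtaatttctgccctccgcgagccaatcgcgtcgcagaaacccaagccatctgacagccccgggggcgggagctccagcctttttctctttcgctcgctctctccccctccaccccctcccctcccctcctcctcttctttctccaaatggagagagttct
GLI2 (chr2:120735618-120735917, plus strand): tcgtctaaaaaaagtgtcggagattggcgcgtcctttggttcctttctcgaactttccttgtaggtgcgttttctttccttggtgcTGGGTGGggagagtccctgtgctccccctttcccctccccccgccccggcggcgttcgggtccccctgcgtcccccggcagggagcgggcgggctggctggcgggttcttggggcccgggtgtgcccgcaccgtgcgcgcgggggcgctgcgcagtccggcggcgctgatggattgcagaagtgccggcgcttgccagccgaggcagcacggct
SHH (chr7:155812414-155812713, minus strand): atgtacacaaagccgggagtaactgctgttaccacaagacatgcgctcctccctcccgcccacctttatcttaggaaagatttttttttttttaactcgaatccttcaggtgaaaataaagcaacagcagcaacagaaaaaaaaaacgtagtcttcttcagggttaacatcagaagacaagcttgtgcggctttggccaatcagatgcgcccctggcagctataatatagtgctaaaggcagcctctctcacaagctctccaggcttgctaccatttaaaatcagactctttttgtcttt
HHIP (chr4:144645906-144646205, plus strand): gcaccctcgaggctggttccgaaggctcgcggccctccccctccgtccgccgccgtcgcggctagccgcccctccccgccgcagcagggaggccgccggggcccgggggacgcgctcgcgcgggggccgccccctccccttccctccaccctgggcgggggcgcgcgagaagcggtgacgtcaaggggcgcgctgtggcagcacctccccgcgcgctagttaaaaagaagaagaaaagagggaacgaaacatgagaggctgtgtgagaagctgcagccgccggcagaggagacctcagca
The match in PTCH1 spans bases 79 to 87 of its window and begins 172 bases before the start site, and that in GLI2 spans bases 87 to 93 and begins 164 bases before it. Base composition differed among the printed windows, with 43.3% G or C in SHH, 57% in PTCH1, 68.3% in GLI2 and 72.7% in HHIP. The other PTCH1 windows, not printed, had 53.3% to 68%, and the other GLI2 window 46.3%. SHH and HHIP had no other window, so fewer of their bases were searched. A match is a description of the letters and says nothing of binding in these cells.

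Values are normalized counts, scaled between libraries by the authors, whose totals were 11674491 to 16758645 per library. A single read was worth 0.795 to 1.595 normalized counts, which gives about 7600000 to 18500000 reads per library and leaves the low genes with few reads each. SETD2 itself had 1852 and 2061 normalized counts in WT, 1046 to 1130 in KO1, 1050 and 1052 in KO2, and 9764 to 10445 in Rescue1 and Rescue2. The libraries labelled KO2_Rescue had 834 and 820, below KO2 rather than above it, a log2 change of -0.35 (limma adjusted p 0.00382), so their SETD2 RNA goes against the label. The summed level of 9 fibroblast markers moved with the groups, from 1154 and 12761 in WT to 46690 and 48120 with TGF-β, 101167 and 104827 in KO2 and 224236 and 237391 in KO1. The sum was carried by different genes in different groups. In the knockouts it was nearly all DCN (means of 228207 in KO1 and 96676 in KO2 against 383 in WT), and with TGF-β it was mostly COL1A1 (45802 against 6226 in WT). The means of COL1A1 (928 and 3636) and COL3A1 (0 and 1.32 against 4.97, few reads) were lower in KO1 and KO2 than in WT. The whole sum of WT replicate 2, 1154, was below the COL1A1 mean of KO2, so that difference rests on WT replicate 1. PDGFRA (185 and 62.55 against 5.35) and LUM (563 and 352 against 4.34) had higher means in both clones than in WT. So did THY1 (171 and 1136 against 14.7) and ACTA2 (735 and 1117 against 309), and, at low counts, PDGFRB and COL1A2. The sum of 6 epithelial markers ran the other way, lowest in KO1 (10057 and 11999), then KO2 (19582 and 20590) and TGF-β treated WT (28962 and 30538), and highest of these 4 groups in untreated WT (35948 and 38360). WT with eGFP, in 10% serum, was near KO2, at 19278 and 20255. This sum was mostly KRT8 and KRT19, and KRT18 had means of 293 in KO1 and 164 in KO2 against 275 in WT. The proximal tubule genes SLC22A6, SLC22A8 and HNF4A were at 0 in all 11 groups, among 15 markers of which 7 to 10 exceeded 3 normalized counts. In bulk RNA, fewer cells of a kind and less RNA per cell cannot be told apart.

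PTCH1 and GLI2 were the members with the most RNA, and GLI1, GLI3 and SMO were near the limit of detection. Per kilobase of the canonical Ensembl transcript, the mean level over the 22 libraries was 28.9 normalized counts for PTCH1, 25.4 for GLI2, 4.97 for SHH, 3.89 for HHIP, 2.46 for GLI1, 1.4 for GLI3 and 1.12 for SMO. SHH lies at chr7:155799980-155812463, PTCH1 at chr9:95442980-95517057, GLI2 at chr2:120735623-120992653 and HHIP at chr4:144646156-144745271 (GRCh38, GENCODE release 44). SMO reached 10 normalized counts in 1 library and was at 0 in 8, so it was not tested, and the other 6 members were.

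**Figure D1:**
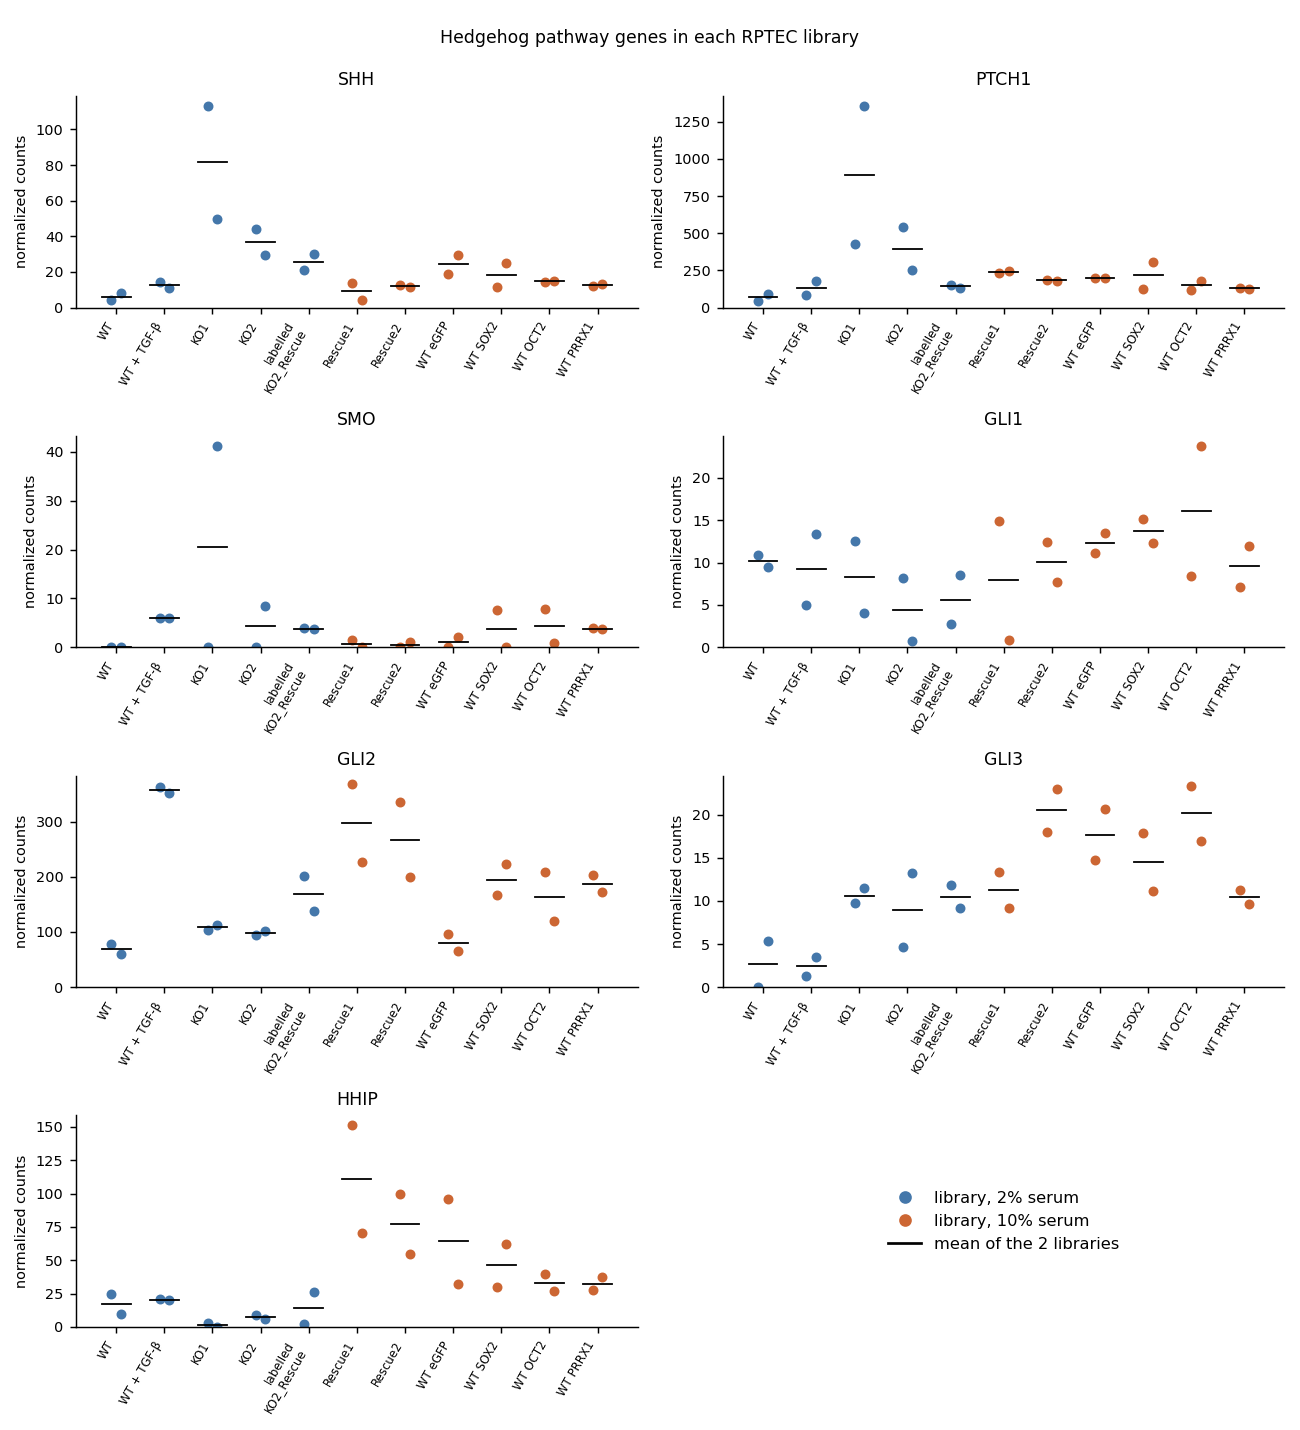
Normalized counts (y axis, linear, a separate scale per gene) of the 7 Hedgehog pathway genes in each of the 22 libraries, by group (x axis). Points are libraries, blue in 2% serum and orange in 10% serum, and black lines are means of 2 libraries. SHH and PTCH1 are highest in KO1 and KO2, GLI2 in WT with TGF-β and in the rescue lines, and HHIP in the 10% serum groups.

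Knockout of SETD2 went with more RNA of the ligand SHH and of its receptor PTCH1 in both clones. SHH, the ligand (IHH and DHH were not analysed here), had 4.21 and 8.21 normalized counts in the WT libraries. It had 113 and 49.9 in KO1 and 44 and 29.7 in KO2. All 4 knockout libraries lay above both WT libraries. On the log2(normalized count + 1) scale SHH rose by 3.46 (SE 0.61) in KO1, with an adjusted p of 0.000314 in limma's moderated test over 14585 genes, and by 2.42 (SE 0.61) in KO2, with an adjusted p of 0.0068.

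PTCH1, which is both the receptor and a target of the pathway, had 46.7 and 93.2 normalized counts in WT, 431 and 1358 in KO1, and 541 and 254 in KO2. The knockout and WT libraries again did not overlap, although KO1 replicate 2 held over 3 times the count of KO1 replicate 1. The log2 rise was 3.51 (SE 0.55, limma adjusted p 0.000108) in KO1, an 11.4-fold change, and 2.47 (SE 0.55, adjusted p 0.00292) in KO2, a 5.54-fold change. With any single library left out, the PTCH1 rise stayed called, at 2.69 to 4.34 in KO1 and 1.93 to 3.01 in KO2. The SHH rise in KO2 was not called without WT replicate 1 (adjusted p 0.0626) or without KO2 replicate 1 (adjusted p 0.0607).

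HHIP, the secreted decoy that binds the ligand, went the other way in KO1. Its WT libraries had 24.5 and 9.86 normalized counts, those of KO1 had 3.13 and 0, and those of KO2 had 8.92 and 6.22. Both KO1 libraries were below both KO2 libraries, and these in turn were below WT. The fitted log2 change was -3.03 (SE 0.92, limma adjusted p 0.0166) in KO1 and -0.98 (SE 0.92, adjusted p 0.489) in KO2, so the fall passed the test in KO1 alone, while the difference between the clones, -2.06 (95% interval -4.03 to -0.08), did not (adjusted p 0.153). KO1 rests on about 3 HHIP reads in all against about 38 in WT, a ratio of 0.085 with an exact binomial 95% interval of 0.017 to 0.27 that covers counting error only. The fitted size depended on the pseudocount, at -3.58 with 0.5 and -1.71 with 5, the latter not called (adjusted p 0.0545), nor was the fall called without WT replicate 1 (adjusted p 0.122) or without KO1 replicate 2 (0.164).

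Of the GLI factors, GLI3 alone was called in a knockout clone against WT, and in KO1 alone. GLI2, the main activator, had 78.7 and 60 normalized counts in WT, 104 and 112 in KO1 and 95 and 103 in KO2. The log2 changes of GLI2, 0.65 (95% interval -0.08 to 1.38) in KO1 and 0.52 (-0.21 to 1.25) in KO2, did not pass the test (limma adjusted p 0.148 and 0.3), although both clones lay above WT in every library. GLI3, mostly a repressor, had 0 and 5.35 normalized counts in WT, 9.74 and 11.5 in KO1 and 4.63 and 13.2 in KO2. It was called in KO1 at a log2 change of 2.2 (SE 0.76, limma adjusted p 0.0316) and not in KO2 at 1.83 (adjusted p 0.088). The GLI3 call rests on WT replicate 1, where no read was found, and without that library the KO1 change was 0.87 (adjusted p 0.397). It was also lost without KO1 replicate 1 (adjusted p 0.0664) or KO1 replicate 2 (0.107).

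GLI1, the target most often read as a sign of active signalling, had 10.9 and 9.44 normalized counts in WT. It had 12.5 and 4.03 in KO1 and 8.13 and 0.73 in KO2, libraries that overlapped WT in KO1 and lay below it in KO2. The log2 changes of -0.43 (95% interval -2.6 to 1.73) in KO1 and -1.49 (-3.66 to 0.68) in KO2 are wide, and at this depth they leave a several-fold fall possible in both clones and a several-fold rise possible in KO1. GLI1 was called by limma in 0 of the 14 comparisons, with an unadjusted p of 0.163 or more. SMO, the transducer, was at 0 in both WT libraries and had 0 and 41.2 normalized counts in KO1 and 0 and 8.53 in KO2, so that KO1 replicate 2 held the highest level of all 22 libraries and KO1 replicate 1 none.

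In all, 3 of the 6 tested members rose in KO1, where 12% of all tested genes rose, and 1 fell, where 13.1% fell. In KO2, 2 rose, where 9.02% of all tested genes rose, and 0 fell, where 7.29% fell (in limma, 0 members had a lower level at an unadjusted p under 0.05). The median log2 change of the 6 was 1.43 in KO1 and 1.18 in KO2, beside a median of 0 over all tested genes in each. Both clones share the same 2 WT libraries as control. Between the clones, 0 of 6 members were called by limma, where 6.97% of all tested genes were called. At an unadjusted p under 0.05 in limma, 1 of the 6 (HHIP) passed, where 4281 of the 14585 tested genes did. When only the libraries of the 2 groups entered the fit, which leaves 2 replicates per group to set the spread, 0 members were called in either clone, with adjusted p-values of 0.0637 and 0.0602 for SHH and PTCH1 in KO1 and of 0.0696 and 0.0748 in KO2. In the knockout libraries, where SHH and PTCH1 were high, the fibroblast marker sum was also high, nearly all of it DCN. By mean, PDGFRA, LUM, THY1 and ACTA2 were above WT too. COL1A1 and COL3A1 were below WT by mean, COL1A1 in KO2 through WT replicate 1 alone. The epithelial marker sum was below that of untreated WT, and the part of either sum in these results was not tested.

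**Figure D2:**
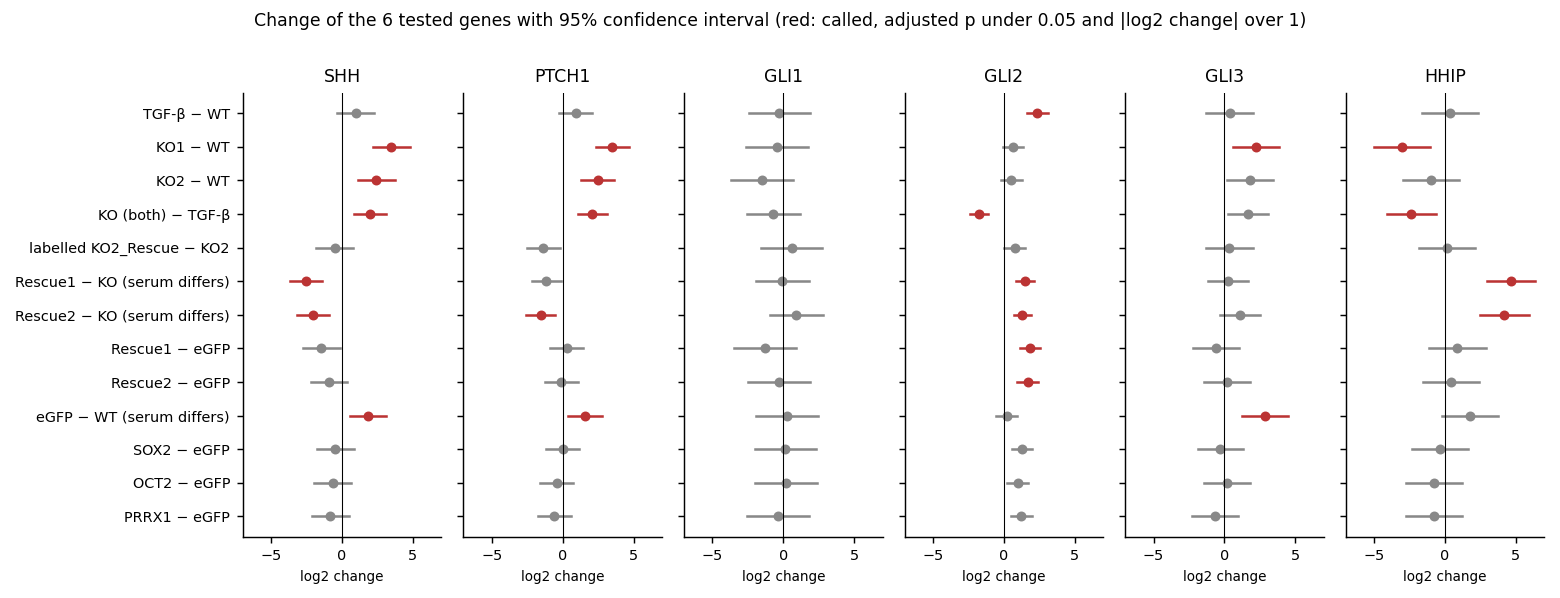
Log2 change (x axis, difference of group means of log2(normalized count + 1), second-named group subtracted) of the 6 tested members in 13 comparisons (y axis), with 95% confidence intervals from limma. Red marks calls, which include SHH and PTCH1 in both clones (3.46 and 3.51 in KO1) and in eGFP against WT. GLI2 is red in the TGF-β comparisons and in those of Rescue1 and Rescue2, and not in labelled KO2_Rescue against KO2. HHIP is red in KO1 against WT, in the knockouts against TGF-β (-2.37) and in both rescue lines against the knockouts (up to 4.65). GLI3 is red in KO1 and in eGFP against WT, while GLI1 has none.

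TGF-β treatment of WT cells went with more GLI2 RNA and with no called change in the other 5 tested members. GLI2 rose from 78.7 and 60 normalized counts in untreated WT to 363 and 352 after TGF-β. The 2 treated libraries lay close together and far above both untreated ones, at a log2 change of 2.36 (SE 0.34, limma adjusted p 0.000188), a 5.13-fold rise. Leaving out any library kept the call, at 2.17 to 2.56, whereas the fit restricted to these 2 groups did not make it (adjusted p 0.0685).

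SHH had 14.3 and 10.7 normalized counts with TGF-β, above both WT libraries, and a log2 change of 0.95 (95% interval -0.34 to 2.25, limma adjusted p 0.351). PTCH1 had 87.2 and 181, which overlapped WT, and a change of 0.92 (-0.25 to 2.09, adjusted p 0.314). HHIP had 21.1 and 19.9, within the WT range, and GLI3 had 1.33 and 3.47, also within it. The count of 1 member higher of 6 compares with 3.58% of all tested genes higher and 4.26% lower, and the median log2 change of the members was 0.64 beside 0 over all genes.

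Setting both knockout clones directly against TGF-β treated WT, without the untreated WT libraries, gave 4 called members of 6, of which 2 were higher, where 10.3% of all tested genes were, and 2 lower, where 9.83% were. SHH was 1.99 higher in log2 in the knockouts (SE 0.52, limma adjusted p 0.00785) and PTCH1 2.08 higher (SE 0.47, adjusted p 0.0029). GLI2 was lower, at -1.78 (SE 0.29, adjusted p 0.000215), with 95 to 112 normalized counts in the 4 knockout libraries against 352 and 363. HHIP was lower as well, at -2.37 (SE 0.8, adjusted p 0.0305). For each of these genes the 4 knockout libraries lay wholly on one side of the 2 treated ones. The GLI2 difference held with every library left out (-1.81 to -1.75). That of SHH was not called without TGF-β replicate 2 (adjusted p 0.0748), that of PTCH1 without TGF-β replicate 1 (0.0699), and that of HHIP without either treated library (0.133 and 0.119), KO1 replicate 2 (0.0871) or KO2 replicate 2 (0.0673).

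The rescue lines had less SHH and more GLI2 and HHIP RNA than the knockout clones. SHH had 13.9 and 4.46 normalized counts in Rescue1 and 12.6 and 11.5 in Rescue2, all below the lowest knockout library at 29.7. SHH fell by 2.56 (SE 0.52, limma adjusted p 0.00126) in log2 in Rescue1 and by 2.03 (SE 0.52, adjusted p 0.0067) in Rescue2, the latter not called without Rescue2 replicate 2 (adjusted p 0.0524). PTCH1 had 234 and 244 in Rescue1 and 184 and 181 in Rescue2, below all 4 knockout libraries, the lowest of which had 254. The PTCH1 change of -1.54 was called in Rescue2 (adjusted p 0.0184) and that of -1.15 in Rescue1 was not (adjusted p 0.0684). The Rescue2 call was lost without KO1 replicate 2, KO2 replicate 1 or either Rescue2 library (adjusted p 0.0578 to 0.0932) and when every library was scaled to the same total (adjusted p 0.0687).

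HHIP had 151 and 70.5 normalized counts in Rescue1 and 99.6 and 54.5 in Rescue2, while the highest knockout library had 8.92. The log2 rise over the knockouts was 4.65 (SE 0.8, limma adjusted p 0.000294) in Rescue1 and 4.17 (SE 0.8, adjusted p 0.000732) in Rescue2. It kept its call with any library left out, at 4.11 to 5.2 and 3.66 to 4.68. GLI2 had 368 and 227 in Rescue1 and 335 and 199 in Rescue2, against at most 112 in a knockout library. The GLI2 rise was 1.47 (SE 0.29, adjusted p 0.00105) and 1.31 (SE 0.29, adjusted p 0.00255), the latter not called without Rescue2 replicate 1 (adjusted p 0.0715).

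Of the 6 members, 2 were higher and 1 lower in Rescue1, where 10.1% of all tested genes were higher and 11.3% lower. In Rescue2, 2 were higher and 2 lower, where 10.2% and 10.5% were. Median log2 changes were 0.09 and 1 for the members and 0 and 0.01 for all genes. The rescue lines grew in 10% serum and the knockouts in 2%. The rescue lines were also transduced, selected with blasticidin and grown from picked colonies of knockout cells. Serum, these steps and SETD2 cannot be told apart in these comparisons.

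Against WT transduced with eGFP, which grew in the same serum, only GLI2 was called among the members. GLI2 had 96.4 and 65.3 normalized counts in the eGFP libraries, below all 4 rescue libraries. The log2 difference was 1.85 (SE 0.34, limma adjusted p 0.000952) for Rescue1 and 1.69 (SE 0.34, adjusted p 0.00209) for Rescue2. This 1 member of 6 in each comparison stands beside 6.03% and 5.46% of all tested genes higher (6.79% and 5.68% lower), and the 2 comparisons share the eGFP control. HHIP overlapped between eGFP (96.3 and 32.4) and both rescue lines, with log2 differences of 0.87 (95% interval -1.1 to 2.85) and 0.39 (-1.58 to 2.36). PTCH1 differed by 0.27 (-0.9 to 1.44) and -0.11 (-1.28 to 1.06). SHH was below eGFP in both lines, by a log2 change of -1.46 (adjusted p 0.0943) and -0.92 (adjusted p 0.316), and neither was called. In a fit of only the 2 groups compared, the GLI2 calls were lost (adjusted p 0.0676 and 0.0809). The eGFP line had the lowest GLI2 mean of the transduced WT lines, 80.9 against 195 with SOX2, 164 with OCT2 and 188 with PRRX1. Libraries of the SOX2 (224), OCT2 (209) and PRRX1 (203) lines exceeded Rescue2 replicate 2 (199), and none reached Rescue1 (227 and 368).

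The libraries labelled KO2_Rescue, grown in 2% serum, had 20.9 and 30 normalized counts of SHH, overlapping KO2, and 153 and 133 of PTCH1, below both KO2 libraries. The PTCH1 change was -1.37 (95% interval -2.54 to -0.2, limma adjusted p 0.147). GLI2 had 201 and 138, above both KO2 libraries, at a change of 0.75 (0.02 to 1.48, adjusted p 0.215). HHIP had 2.34 and 25.9, the widest spread on the log2 scale of any pair of HHIP libraries. Of the 6 members 0 were called, where 4.17% of all tested genes were (limma). At an unadjusted p under 0.05, 2 of the 6 passed, PTCH1 at 0.0249 and GLI2 at 0.0449, where 3199 of the 14585 tested genes passed.

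Untreated WT and WT with eGFP differ in serum, transduction and selection, which cannot be told apart, and the members differed between them too. SHH had 18.9 and 29.8 normalized counts with eGFP, above both WT libraries, and rose by 1.84 in log2 (SE 0.61, limma adjusted p 0.0365). PTCH1 had 199 and 197 and rose by 1.57 (SE 0.55, adjusted p 0.0467). GLI3 had 14.7 and 20.7 and rose by 2.87 (SE 0.76, adjusted p 0.0109). These 3 of 6 members stand beside 6.49% of all tested genes higher and 6.24% lower. Without WT replicate 1 none of the 3 was called (adjusted p 0.204, 0.283 and 0.152), nor without eGFP replicate 2 (0.184, 0.132 and 0.0656), and without eGFP replicate 1 only GLI3 was. HHIP was above WT in both eGFP libraries without passing the test, at 1.78 (95% interval -0.2 to 3.75, adjusted p 0.181).

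Ectopic SOX2, OCT2 or PRRX1 brought no called change in the members. GLI2 had 166 and 224 normalized counts with SOX2, 209 and 119 with OCT2 and 203 and 173 with PRRX1, each above both eGFP libraries. Its log2 changes were 1.27 (95% interval 0.54 to 2, limma adjusted p 0.389), 0.98 (0.25 to 1.71, adjusted p 0.536) and 1.23 (0.5 to 1.96, adjusted p 0.57), and the 3 lines share the eGFP control. At an unadjusted p under 0.05 in limma, GLI2 passed in all 3 lines, at 0.00219, 0.0118 and 0.0028. Of the 14585 tested genes, 986 passed that threshold with SOX2, 1026 with OCT2 and 673 with PRRX1. By the stricter rule for calls, these comparisons called 0.0206%, 0.0343% and 0.0411% of all tested genes. The median member change was -0.15, -0.12 and -0.65 for SOX2, OCT2 and PRRX1, beside 0 over all genes.

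Neighbours in the ranking of the 11 groups by mean level mostly overlapped. For SHH, 8 of the 10 neighbouring pairs of groups in the ranking overlapped in their libraries, and KO1 at the top, with a mean of 81.6, lay apart from KO2 at 36.8. WT had the lowest mean, 6.21, and overlapped Rescue1 above it. For PTCH1, 6 of 10 pairs overlapped, KO1 and KO2 with means of 894 and 397 overlapped each other, and KO2, at 254 and 541, also overlapped the SOX2 line, at 125 and 308. WT had the lowest PTCH1 mean, 69.9, and overlapped TGF-β treated WT. For GLI2, 8 of 10 overlapped, with TGF-β at the top at 357 and WT at the bottom at 69.3. For HHIP, 8 of 10 overlapped, the 6 groups in 10% serum all lay above the 5 in 2% serum by mean, and KO1 at the bottom, at 1.57, lay apart from KO2 but not from the libraries labelled KO2_Rescue. All 10 pairs overlapped for GLI3, and 9 of 10 for GLI1 and SMO.

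Across the 11 group means of log2(normalized count + 1), PTCH1 followed SHH with Pearson's r of 0.83, SHH and HHIP ran opposite at -0.72, and GLI2 and HHIP had 0.43. PTCH1 and HHIP, both targets of the pathway, had an r of -0.46, and PTCH1 and GLI1 had -0.39. These are descriptions over 11 groups that share serum, transduction and parent line. The genes most like each member over the same group means were SEC22B, NFE2L1 and SCARB2 for SHH (r of 0.951, 0.947 and 0.945), ST3GAL1, MFSD2A and COQ10B for PTCH1 (0.954, 0.953 and 0.95), MEX3A, ARHGAP31 and ZNF500 for GLI2 (0.889, 0.874 and 0.855), and NHS, ATP5F1C and XPO4 for HHIP (0.983, 0.969 and 0.967). For the low genes they were CUEDC1, TRPM2 and NRG2 for GLI3 (0.972, 0.938 and 0.934), and ENSG00000266865, SPATA24 and ANKS1A for GLI1 (0.936, 0.925 and 0.923).

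**Figure D3:**
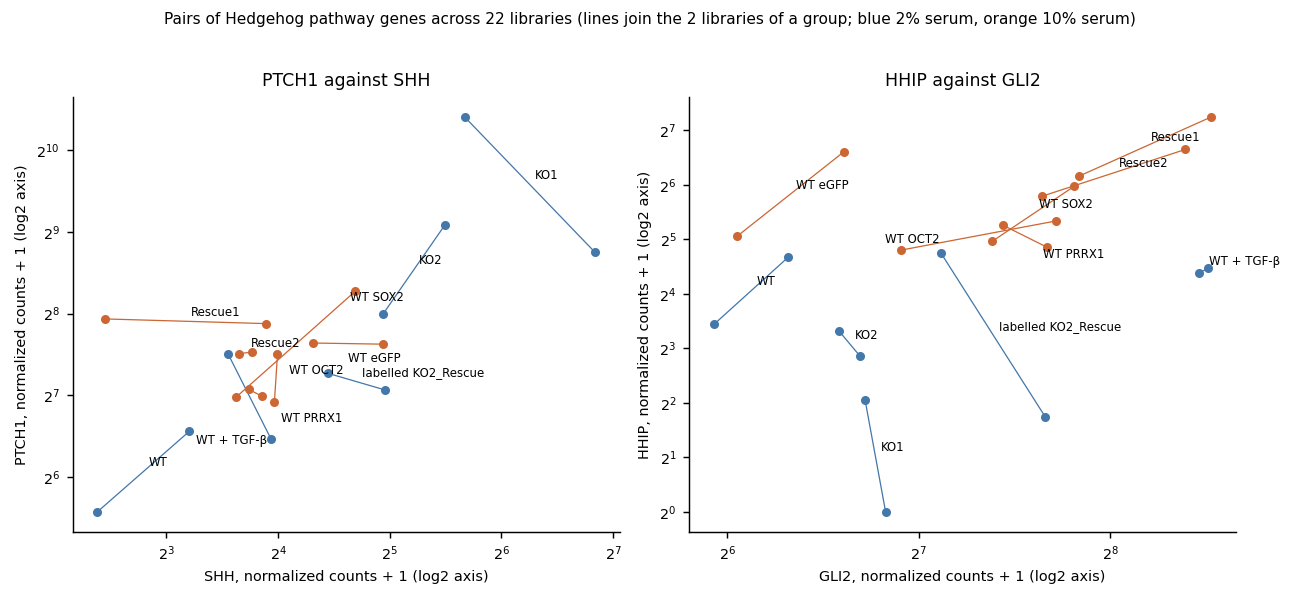
PTCH1 against SHH (left) and HHIP against GLI2 (right), in normalized counts + 1 on log2 axes, in 22 libraries. Points are libraries, lines join the 2 libraries of a group, blue is 2% serum and orange 10% serum. KO1 and KO2 sit at the upper right on the left and low on the right, where TGF-β treated WT has 352 and 363 normalized counts of GLI2 and 19.9 and 21.1 of HHIP.

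The surrounding machinery was read from a list of 49 further pathway genes, of which 41 were in the table and 36 were tested. In KO1, 6 of the 36 rose and 3 fell, where 12% and 13.1% of all tested genes did. In KO2, 6 rose and 2 fell, where 9.02% and 7.29% of all genes did, and the medians of -0.07 and -0.03 stand beside 0 for all genes. With TGF-β, 2 rose and 2 fell (3.58% and 4.26% of all genes). The direct comparison of both knockouts with TGF-β had 6 higher and 3 lower (10.3% and 9.83%), and eGFP against WT had 6 higher and 2 lower (6.49% and 6.24%). Rescue1 had 3 higher and 4 lower than the knockouts (10.1% and 11.3%) and Rescue2 2 higher and 3 lower (10.2% and 10.5%). Against the eGFP line, SOX2, OCT2 and PRRX1 had 0 called in either direction by limma. At an unadjusted p under 0.05, 3, 4 and 3 of the 36 passed, where 986, 1026 and 673 of the 14585 tested genes did.

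Among co-receptors, which help PTCH1 bind the ligand, BOC rose in both clones, and CDON changed in opposite directions in them by less than the fold needed for a call. BOC had 46.3 and 58.7 normalized counts in WT, 157 and 163 in KO1 and 232 and 250 in KO2. Its log2 rise was 1.6 (SE 0.24, limma adjusted p 8.64e-05) in KO1 and 2.19 (SE 0.24, adjusted p 6.48e-06) in KO2. BOC was also higher in eGFP than in WT, by 1.64 (adjusted p 0.00014). CDON had 164 and 227 in KO1 and 625 and 715 in KO2, with log2 changes from WT of -0.8 (limma adjusted p 0.0225) and 0.99 (adjusted p 0.00923). It rose with TGF-β, from 382 and 297 to 888 and 994 (log2 change 1.48, adjusted p 0.000935), and was lower in KO1 than in KO2 by 1.79 in log2 (adjusted p 0.000255).

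At the cilium, EVC, part of the ring that passes the signal on from SMO, rose in both clones and was lower in the rescue lines. Its libraries had 11.2 and 19.4 normalized counts in WT, 242 and 136 in KO1, and 174 and 190 in KO2, with no overlap. The log2 rise was 3.53 (SE 0.41, limma adjusted p 5.91e-06) in KO1 and 3.54 (SE 0.41, adjusted p 9.66e-06) in KO2, and these calls held in the fit of the 2 groups alone. EVC2, another cilium gene of the list, had a mean of at most 1.76 normalized counts in any group and was not tested. EVC was lower than in KO2 in the libraries labelled KO2_Rescue, at 42 and 78.2 (log2 change -1.65, adjusted p 0.0172), a call lost without either KO2 library (0.0779 and 0.102) or KO2_Rescue replicate 1 (0.189). Relative to both knockouts it was lower in Rescue1 (-1.86, adjusted p 0.000686) and Rescue2 (-1.34, adjusted p 0.00735), where serum, transduction and selection differ. The Rescue2 call was lost without Rescue2 replicate 1 (0.0694). EVC was also higher in eGFP than in WT, by 1.55 (adjusted p 0.011), not called without WT replicate 1 (0.101) or eGFP replicate 1 (0.053). INPP5E, a ciliary phosphatase, fell in KO2 (log2 change -1.27, adjusted p 0.0288). DYNC2H1, the retrograde ciliary motor, was lower in Rescue1 than in eGFP (-3.89, adjusted p 0.000814), and the difference of Rescue2 from eGFP, -1.28 (adjusted p 0.218), was not called. The eGFP libraries, at 260 and 115 normalized counts, had the highest mean of the 11 groups (187), and the other means ran from 11.3 in Rescue1 to 71.3 in Rescue2. DYNC2H1 was also lower in Rescue1 than in the knockouts (-2.07, adjusted p 0.0143), a call lost without Rescue1 replicate 2 (0.144). TMEM67, a protein of the ciliary transition zone, was lower in Rescue1 than in eGFP (-1.3, adjusted p 0.0195), a call lost without any of the 4 libraries (0.0683 to 0.0896).

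Among regulators of GLI proteins in the cytoplasm, 2 of 14 tested genes rose in each clone, where 12% of all tested genes rose in KO1 and 9.02% in KO2, and 0 fell, where 13.1% and 7.29% fell. BTRC, a subunit of the ligase that marks GLI proteins for processing, rose by 2.57 in KO1 and 2.49 in KO2 (limma adjusted p 0.00475 and 0.0079), and by 2.7 in eGFP over WT (0.0054). Its WT libraries had 120 and 49.9 normalized counts against 505 and 430 in KO1, and without WT replicate 2 neither knockout rise was called (adjusted p 0.0627 and 0.0944). CSNK1A1, a kinase that acts on GLI and SMO, rose by 1.33 in KO2 (adjusted p 7.48e-05), and ULK3, a kinase of GLI proteins, by 1.23 in KO1 (0.0143). Both were lower in Rescue1 (-1.24 and -1.54) and Rescue2 (-1.3 and -1.17) than in the knockouts. CSNK1A1 was also lower in both rescue lines than in eGFP (-1.81 and -1.87, adjusted p 6.67e-06 and 4.82e-06). The eGFP line was itself above WT by 1.6 (adjusted p 2.03e-05), with a mean of 713 normalized counts against 233 in WT, 205 in Rescue1 and 194 in Rescue2.

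Genes known elsewhere as GLI targets were called in both directions. Of the 8 tested, 2 rose and 2 fell in KO1 (12% and 13.1% of all genes), and 2 rose and 1 fell in KO2 (9.02% and 7.29%), with median log2 changes of 0.08 and -0.07. FOXF2, a transcription factor of mesenchyme, had 5 and 9.5 normalized counts in WT, 76.5 and 67.6 in KO1, and 240 and 202 in KO2. It rose by 3.2 and 4.8 in log2 (SE 0.37 each, limma adjusted p 5.53e-06 and 1.3e-07). It was not lower with rescue, at 389 and 340 in Rescue1 and 198 and 205 in Rescue2, which lay above the eGFP line by 3.88 and 3.03 (adjusted p 2.45e-06 and 2.69e-05). FOXL1, also a mesenchymal forkhead factor, fell by 1.73 in KO1 and 1.92 in KO2 (adjusted p 0.0273 and 0.0205), and neither call held with every library left out.

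BMP4, a secreted growth factor, fell by 4.61 with TGF-β (limma adjusted p 0.0049) and rose by 3.04 in KO2 (adjusted p 0.0346), the latter lost without any of the 4 libraries of that comparison. Its libraries had 114 and 160 normalized counts in WT, 30.4 and 0 with TGF-β, and 1058 and 1183 in KO2. CCND1, the cyclin of early cell cycle entry, rose by 1.82 with TGF-β and 1.45 in KO1 (adjusted p 2.46e-06 and 4.22e-06), with 5655 and 5465 in KO2 inside the WT range of 3852 to 6803. BCL2, a survival factor, fell by 4.31 in KO1 (adjusted p 0.00415), where its libraries, at 116 and 2.1, lay far apart. IGFBP6 fell by 2.32 with TGF-β (adjusted p 0.00929) and SCUBE2, which releases the ligand from cells, fell by 2.53 in KO1 (adjusted p 0.045). The KO1 libraries of SCUBE2 had 2.7 and 45.2 normalized counts against 90.4 and 61.2 in WT. Without KO1 replicate 1 its change was -0.71 (adjusted p 0.515), and the call was also lost without either WT library (0.171 and 0.0884). SCUBE2 was lower in eGFP than in WT as well, at 9.1 and 10.4 (log2 change -2.81, adjusted p 0.0389), a call lost without any of the 4 libraries (0.085 to 0.157).

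**Figure D4:**
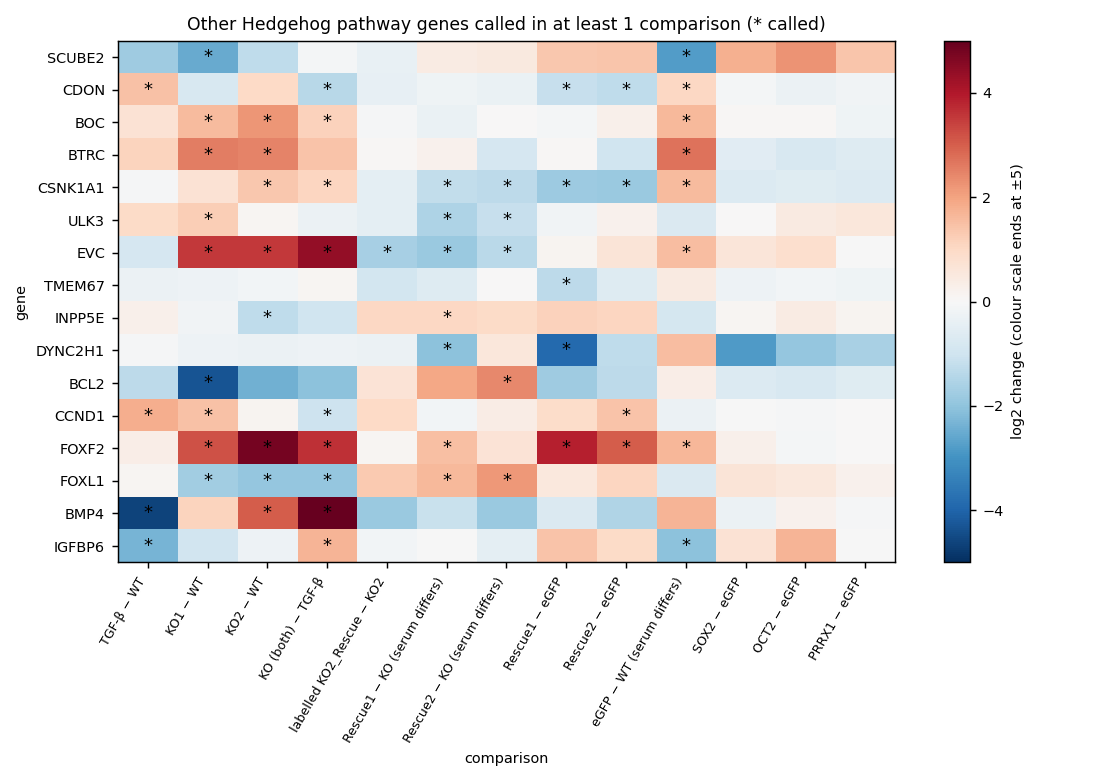
Log2 change (colour, scale ending at ±5) of the 16 further pathway genes called at least once, by comparison (x axis), with asterisks on calls. EVC, BOC, BTRC and FOXF2 are red in both knockout clones (EVC 3.53 and 3.54), and FOXF2 alone of these is red again in both rescue lines against eGFP (3.88 and 3.03).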

How the data were processed

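RNA-seq libraries were made from total RNA (Trizol) with a stranded mRNA kit. The authors quantified transcripts with Salmon 1.9.0 on Ensembl release 94 cDNA (hg38) and used DESeq2 1.26.0. The deposited log2 values of 36859 genes are variance-stabilized: 11.32 is the minimum of each of the 22 libraries, and undoing the transformation yields values that climb in steps of 1 read. The transformation is not named in the sources used here. The values were inverted to normalized counts, where the plan had assumed linear counts, and the planned test was kept. Totals of 11674491 to 16758645 normalized counts per library correspond to about 7600000 to 18500000 reads, which limits precision for low genes.

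Groups came from the library labels. The test was limma 3.58.1 (R 4.3.3, with its trend option) on log2(normalized count + 1), with 22 libraries in 1 fit and a mean per group. The 14585 genes tested reached 10 normalized counts in 2 or more libraries. Benjamini-Hochberg adjustment was over these genes in each of 14 comparisons. Calls needed an adjusted p below 0.05 with a log2 change beyond 1 in either direction, and changes are on this scale, which understates low genes. The script was tested on simulated data. Alternatives were the pseudocount, the filter, the scaling, the deposited values, a fit of the compared groups, a replicate block and leaving out each library. Symbols and positions came from GENCODE release 44, promoter windows from RefSeq (GRCh38.p14). Other software was data.table in version 1.17.8, matplotlib 3.10.9, scipy 1.17.1, pandas 2.3.3, numpy 2.4.6 and Python 3.11.15.

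The members and lists were chosen with earlier results of these data known. The genes named are the members, further list genes called in any comparison, EVC2, the 3 genes most like each member, cell type markers, and SETD2. Results of some single genes are left out. Of the 56 list genes, 8 are not analysed here. Replicate numbers do not pair samples: deviations of same-numbered libraries correlated at -0.17 to 0.11 over 55 pairs of groups, with 1 pair over 0.1.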

Additional observations from a re-analysis of the deposited data

Results flagged for a closer look

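Knockout and TGF-β treatment were compared directly, and 4 members differed between them by that test (limma, both KO clones minus TGF-β treated WT). The log2 difference was 1.99 for SHH, 2.08 for PTCH1, -1.78 for GLI2 and -2.37 for HHIP. What flagged each was the test of the difference itself. Groups held 2 libraries, too few to look for single outlying libraries.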

How the results depend on the processing

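Pseudocounts of 0.5 and 5, quantile normalization and the replicate block left the count of called members within 1.5 times in all 14 comparisons. Leaving out the low filter gave 1 called member for eGFP against WT. A mean of at least 50 normalized counts, under which fewer members were tested, gave 1 in KO1 and 1 in KO2 against WT, 2 for KO against TGF-β, 1 for Rescue1 and 2 for Rescue2 against KO, and 1 for eGFP against WT. The deposited log2 values with adjusted p alone gave 2 in KO1 and 1 for eGFP against WT. A fit of only the groups compared, with fewer libraries to set the spread, gave 0 for TGF-β, KO1, KO2 and eGFP against WT and for both rescue lines against eGFP, and 2 for KO against TGF-β. Of 23 member calls, 15 were lost in that fit and the other 8 kept.

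Scaling to the same total moved the median of all genes by -0.4 in KO1, -0.21 in KO2, -0.2 with TGF-β, and 0.36 and 0.41 for Rescue1 and Rescue2 against KO. Under it GLI2 between the clones turned to -0.05, GLI1 in Rescue1 against KO to 0.21 and PTCH1 in Rescue2 against eGFP to 0.02. GLI1 in Rescue1 against KO was also positive under a pseudocount of 5 (0.05) and quantile normalization (0.15), and PTCH1 with SOX2 was 0.01 in deposited values. None of these was called, and the cause was not tested.

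With 1 library left out in turn, called members ranged from 2 to 4 in KO1 (lowest without WT replicate 1 or KO1 replicate 2), 1 to 3 in KO2 (WT replicate 1, KO2 replicate 1), 2 to 5 for KO against TGF-β (either treated library), 0 to 1 between clones (1 without KO1 replicate 1), 2 to 4 for Rescue2 against KO (either Rescue2 library), 1 to 2 for Rescue1 against eGFP (2 without Rescue1 replicate 1) and 0 to 3 for eGFP against WT (0 without WT replicate 1 or eGFP replicate 2). Of 23 calls in 114 such fits, 27 fits lost the call and 0 reversed it. Uncalled changes that crossed 0 ranged as follows. For GLI1 the range was -0.9 to 0.37 with TGF-β, -1.15 to 0.28 in KO1, -0.15 to 2.25 between clones, -1.62 to 1.48 for Rescue1 against KO, -0.62 to 1.78 for KO2_Rescue against KO2, -2.83 to 0.27 and -0.6 to 0.01 for Rescue1 and Rescue2 against eGFP, and -0.49 to 0.9 with OCT2. For GLI3 it was -0.98 to 1.69 with TGF-β, -0.3 to 1.04 between clones, -0.08 to 0.58 for Rescue1 against KO, -0.31 to 1.02 for KO2_Rescue, -0.02 to 0.44 for Rescue2 against eGFP, -0.6 to 0.03 with SOX2 and -0.05 to 0.41 with OCT2. For HHIP it was -0.25 to 0.99 with TGF-β, -1.34 to 1.67 for KO2_Rescue, -0.38 to 1.16 for Rescue2 against eGFP, -1.13 to 0.41 with SOX2 and -1.53 to 0.01 with OCT2. For SHH and PTCH1 with SOX2 it was -1.01 to 0.06 and -0.66 to 0.64, and for GLI2 in eGFP against WT -0.07 to 0.48.

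The replicate block changed none of the 23 member calls and ended 2 of 64 calls of further pathway genes, and the replicate numbers were not found to pair samples. Duplicates and few reads limit what can be said of SMO, GLI1, GLI3 and HHIP in KO1.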
